A study of Mus musculus with 12 samples.

Results

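A set of 10 long noncoding RNAs that act mostly in the cell nucleus was followed in GFP-sorted cells of the postnatal mouse cerebellum: Malat1, Neat1, Meg3, Miat, Rmst, Snhg11, Gas5, Sox2ot, Rian and Mirg. They were found by symbol, and all 10 were among the 24421 entries of the expression table and among the 15464 genes tested. Malat1 was chosen by its measured share of the reads, which was high at P14, so its changes into and out of P14 are given as a description with no test. The cells came from Aldh1l1-GFP reporter mice on the C57/BL6J background, in which the promoter of Aldh1l1, a gene of folate metabolism used as an astrocyte marker, drives green fluorescent protein. No further allele or treatment is named for any group, both sexes were used, and the groups were set apart by age, with 3 libraries each at P1, P7, P14 and P28 (postnatal days 1, 7, 14 and 28). The gate rests on fluorescence from this one promoter. The labels do not say whether the libraries of a time point came from separate animals, so the p-values measure the spread between libraries, which may be technical.

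Long noncoding RNAs are transcripts that are spliced and capped like messenger RNAs, or cleaved at their ends, without coding for a known protein. Malat1 gathers in nuclear speckles, the stores of splicing factors, and Neat1 is the scaffold on which paraspeckles, a second kind of nuclear body, are built. Meg3, Rian and Mirg are transcribed from the maternal copy of the imprinted Dlk1-Dio3 domain, Miat, Rmst and Sox2ot are known from neural progenitors and neurons, and Snhg11 and Gas5 are host genes whose introns carry small nucleolar RNAs. Spliced Gas5 is also found in the cytoplasm, and the location of the RNAs was not measured here.

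Malat1 (a lincRNA gene at chr19:5795690-5802672, minus strand, GRCm38) and Neat1 (a lincRNA gene at chr19:5824708-5845478, minus strand) lie side by side. Malat1 and the long Neat1 transcript do not end in an ordinary poly(A) tail: RNase P cuts the primary transcript, and U-rich and A-rich stretches fold into a triple helix that protects the new end. Neat1 also has a short transcript with a poly(A) tail, and the counts per gene do not separate it from the long one. The exonic sequence around the 3′ end of Malat1 and of long Neat1 in GENCODE M21 is shown because it carries this element, Malat1 at chr19:5795958-5796183 and Neat1 at chr19:5824708-5824916. The capitals mark the longest run that the last 400 bases of the 2 transcripts share, 16 bases long.
Malat1: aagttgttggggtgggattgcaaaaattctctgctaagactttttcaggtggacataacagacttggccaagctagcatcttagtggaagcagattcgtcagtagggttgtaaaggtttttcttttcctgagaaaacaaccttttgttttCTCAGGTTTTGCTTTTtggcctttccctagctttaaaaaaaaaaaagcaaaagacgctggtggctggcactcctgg
Neat1: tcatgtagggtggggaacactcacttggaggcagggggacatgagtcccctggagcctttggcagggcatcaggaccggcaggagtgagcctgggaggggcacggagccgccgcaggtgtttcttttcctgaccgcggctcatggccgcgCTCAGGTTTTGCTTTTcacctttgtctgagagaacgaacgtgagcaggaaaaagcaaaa
Among the longest transcripts of the 43368 GENCODE genes with at least 400 bases, 2 held this run within their last 400 bases, which are these. The A-rich tract that pairs with the U-rich runs lies in the lower-case letters after the capitals. The labels call the sequenced RNA poly(A) RNA, while the kit named there starts from total RNA, and the entry Rn45s, the precursor of ribosomal RNA, took the second largest mean share of reads at each time point (2.12% to 3.53%).

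The libraries held 6399499 to 14733985 reads on genes. The deposited values are normalized counts, that is, reads divided by 1 size factor per library, and fold changes below are differences of log2(normalized count + 1) with their standard error (SE) from 1 limma fit over the 12 libraries. Genes were called at a Benjamini-Hochberg adjusted p under 0.05 over all genes tested. The summed reads of 10 astrocyte markers, such as Slc1a3 and Aqp4, went from 0.728% ± 0.0786 of the reads in the P1 libraries and 0.489% ± 0.140 in the P7 libraries to 1.61% ± 0.172 and 3.08% ± 0.123 in those of P14 and P28 (SD, n = 3). Markers of other cells were present too, those of oligodendrocytes above all at P14, and their part in the results below was not tested. In bulk RNA, fewer cells of a type and less RNA per cell cannot be told apart.

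Malat1 had more reads than any other entry in 11 of the 12 libraries, and was second in P28 replicate 2. Its share of the reads was 3.22%, 3.58% and 3.21% in the P1 libraries and 3.66%, 3.17% and 3.43% in the P7 libraries. It was 6.89%, 5.48% and 6.22% at P14, and 3.56%, 3.24% and 4.08% at P28. The 3 P14 libraries lay above the other 9, which overlapped from P1 through P28. The mean at P14 was 6.19% ± 0.704 (SD, n = 3), 1.81 times that at P7 (3.42% ± 0.242), and the ratio stayed between 1.71 and 1.91 when 1 P14 library was left out. Counted only against protein-coding genes, the ratio was 1.82.

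**Figure D1:**
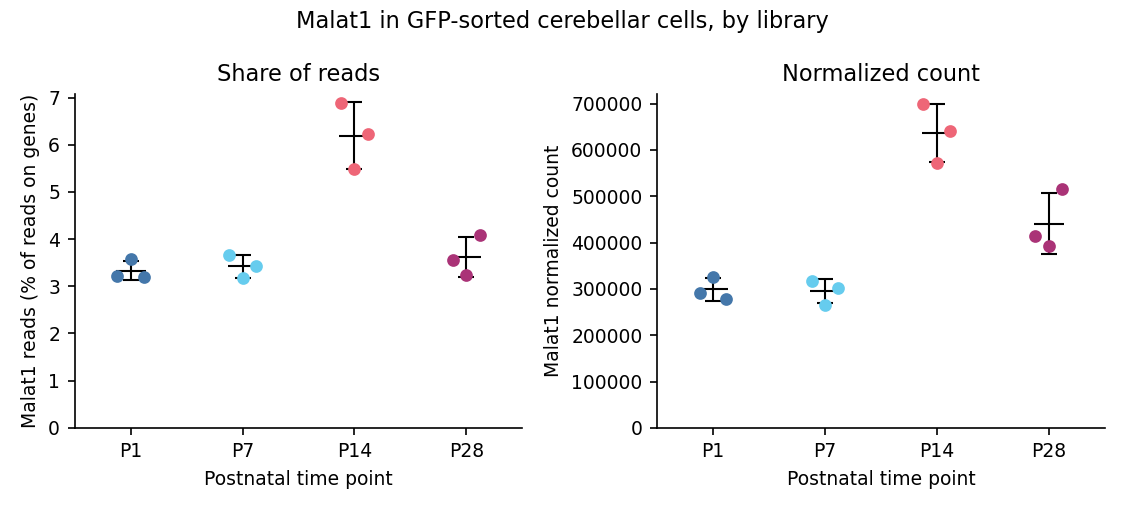
Malat1 in each library by time point, as percent of the reads on genes (left) and as normalized count (right); points are libraries and black bars are the mean ± SD of 3 libraries. The P14 libraries (5.48% to 6.89%) stand above all others on the left, while on the right the P28 libraries also lie above P1 and P7.

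On the scale of normalized counts, Malat1 was at 291839, 326548 and 278654 at P1, and at 316774, 265895 and 301627 at P7. It was at 698157, 571227 and 639707 at P14, and at 414051, 392508 and 515773 at P28. The P14 values were the highest, the P28 values came next, and P1 and P7 overlapped. Malat1 was 1.11 ± 0.191 (SE) higher on the log2 scale at P14 than at P7 and 0.54 ± 0.191 lower at P28 than at P14, as a description; with scaling by library totals the differences were 0.85 and -0.77. Of the genes tested, 27.8% changed at least as much from P7 to P14. From P1 to P7 its log2 fold change was -0.02 ± 0.191 (limma, adjusted p = 0.979). From P1 to P28 it rose by 0.55 ± 0.191 (limma, adjusted p = 0.0370). With library totals the change was 0.12 and not called (adjusted p = 0.597), while TMM scaling in limma kept the call (adjusted p = 0.0308), as did edgeR (0.0109) and DESeq2 (0.00340). The call was also lost with a filter of at least 10 in every library (adjusted p = 0.0649), with only P1 and P28 in the fit (0.0762), and without P1 replicate 1 (0.54), P1 replicate 3 (0.50), P7 replicate 1, P7 replicate 3 (both 0.55) or P28 replicate 3 (0.43). Over all alternatives the adjusted p ran from 0.00340 to 0.597.

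Markers of several cell types moved with Malat1. A list of 10 oligodendrocyte markers, including the myelin gene Mbp, took 0.0181% to 0.0290% of the reads in the P1 libraries and 0.259% to 0.394% in those of P7. The range was 3.45% to 3.87% in the P14 libraries and 0.838% to 1.25% in the P28 libraries. All 10 rose from P7 to P14 and 8 of the 10 fell from P14 to P28, with a median log2 fold change of 3.84 and then -2.21. Across the 12 libraries, Pearson's r between log2 Malat1 and the log2 summed level of this list was 0.82, and -0.19 between their deviations from the time point means. It was 0.84 and -0.35 for granule neuron markers, 0.69 and 0.44 for astrocyte markers, and -0.79 and -0.67 for dividing cell markers. The 5 genes whose log2 values were most like those of Malat1 over the 12 libraries, among 10212 genes with a mean of at least 100, were Desi1 (r = 0.96), Zdhhc9 (0.96), Abca2 (0.95), Map7d1 (0.95) and Aspa (0.94). Abca2, a lipid transporter, and Aspa, the enzyme that cleaves N-acetylaspartate, are both known from oligodendrocytes. Aspa had a mean normalized count of 57.0 at P7, 819 at P14 and 192 at P28, and Abca2 of 1267, 4054 and 2413. Over the same steps the markers of granule neurons summed to 0.0427%, 0.207% and 0.0961% of the reads, and those of dividing cells to 0.275%, 0.0167% and 0.00697%. Libraries of 1 age share that age in these correlations, and what part the other cell types had in the level of Malat1 was not tested.

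**Figure D2:**
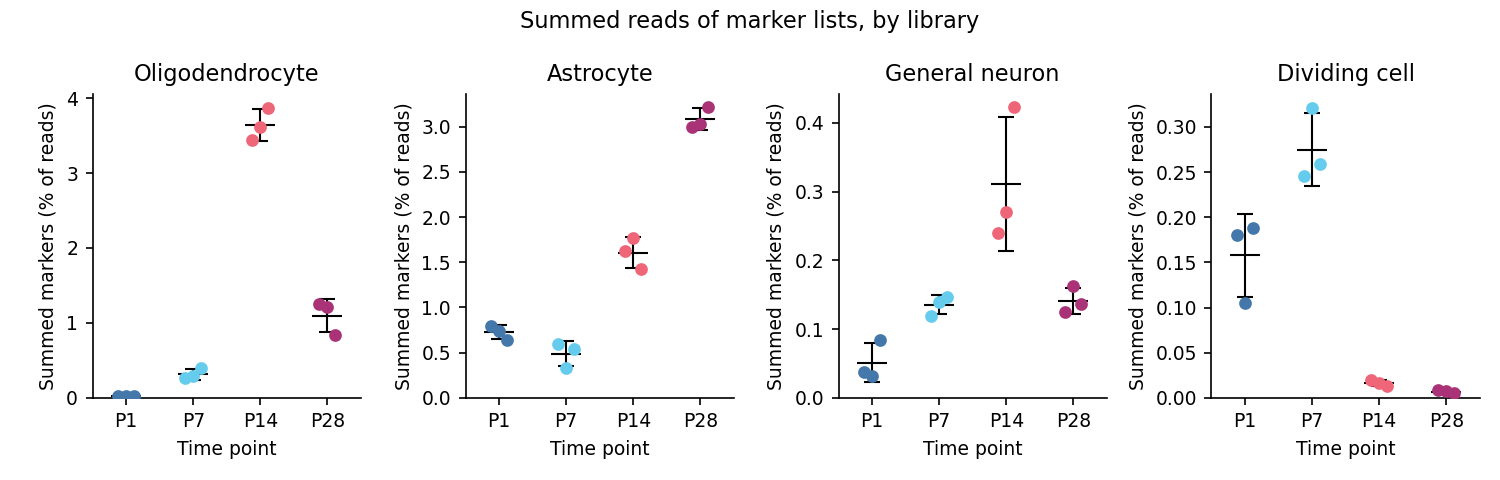
Summed reads of 4 marker lists as percent of the reads on genes in each library, by time point; points are libraries and black bars are the mean ± SD of 3 libraries. The oligodendrocyte list peaks at P14 (3.45% to 3.87%), the astrocyte list at P28, the general neuron list at P14 and the dividing cell list at P7.

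Neat1, the neighbour of Malat1, had its lowest mean at P1 and its highest at P28. Its normalized counts were 971, 744 and 769 at P1, and 1785, 2983 and 1288 at P7. They were 2114, 2145 and 2315 at P14, and 2756, 2027 and 4583 at P28. The P1 libraries lay below the other 9, and P7, P14 and P28 overlapped. Neat1 rose from P1 to P7 by 1.21 ± 0.298 on the log2 scale (limma, adjusted p = 0.0222), and by 1.84 from P1 to P28 (adjusted p = 0.000300). The first of these calls was lost without P1 replicate 2 (log2 fold change 1.14), P1 replicate 3 (1.16), P7 replicate 1 (1.25) or P7 replicate 2 (0.88), while the second stood under all alternatives. The later steps gave 0.20 (adjusted p = 0.702) and 0.43 (adjusted p = 0.362). Choroid plexus markers, led by Ttr, a carrier of thyroid hormone, took 0.00356% to 0.00842% of the reads in the P1 libraries and 0.545% to 1.52% in those of P7. They took 0.00853% to 1.07% in the P14 libraries and 0.140% to 1.504% in those of P28. As a description over the 12 libraries, Pearson's r with Neat1 was 0.62 for this list, 0.77 for granule neuron markers and 0.76 for oligodendrocyte markers, and -0.20, 0.43 and -0.50 between deviations from the time point means. Endothelial markers had an r of 0.66 and, between deviations, 0.45, and general neuron markers 0.64 and -0.11. Markers of oligodendrocyte precursors (-0.67 and -0.19) and of dividing cells (-0.61 and -0.12) went the other way. What part any of these cells had in the level of Neat1 was not tested. Per kilobase of exon, Neat1 was 39.9 ± 5.98 at P1 and 150 ± 63.4 at P28 (SD, n = 3), against 42820 and 63122 for Malat1. The length used for Neat1 is that of the long transcript, 20771 bases. Reads of the short transcript are not separated, so the values of Neat1 per kilobase may be too low.

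Frmd8, a tested protein-coding gene beside this pair, which codes for a partner of the iRhom proteins and lies 4224 bases from Neat1, rose by 1.77 ± 0.358 from P7 to P14 (limma, adjusted p = 0.00269), from a mean of 174 to 596. The RNAs that code for proteins of the bodies that the pair belongs to were counted next, and protein levels were not measured. Of 20 genes for paraspeckle proteins, 0 rose and 13 fell from P7 to P14, a step in which 10.0% of all genes fell. Their median log2 fold change was -0.91 beside -0.09 for all genes tested. Nono, one of the core paraspeckle proteins, fell by 1.22 (adjusted p = 8.17e-05), from a mean of 1845 to 796. Ss18l1 fell by 1.23 and Nudt21, a subunit of a cleavage factor at 3′ ends of messenger RNAs, by 1.23 (adjusted p = 0.00409 and 0.0231). From P14 to P28, 1 of the 20 rose, Hnrnpk (0.44, adjusted p = 0.0419), and 0 fell.

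Of 25 genes for nuclear speckle proteins, 3 rose in RNA level from P1 to P7 and 7 fell from P7 to P14. In either step 0 changed in the opposite direction. Of all genes, 3.47% were higher in the first step and 10.0% lower in the second. The median log2 fold change of the list was 0.17 and then -0.44, beside 0.04 and -0.09 for all genes tested. Srsf1, a splicing factor, rose by 0.83 (limma, adjusted p = 0.0165) and then fell by 1.19 (adjusted p = 0.000542), and Srsf3, of the same family, rose by 0.71 and fell by 1.17. From P14 to P28 1 fell, Clk1, a kinase of these splicing factors, by 0.74 (adjusted p = 0.0148). Of 13 genes for the processing or binding of the 3′ end shown above, 2 fell from P7 to P14: Elac2, the enzyme that trims transfer RNAs at their 3′ end, by 1.12 (adjusted p = 0.0348), and Rpp40, a subunit of RNase P, from a mean of 48.3 to 7.81 (adjusted p = 0.0454). That is a share near the 10.0% of all genes. The median log2 fold change of the list was -0.81, beside -0.09 for all genes tested, and 3 of the 13 had a positive change. In that step, 0 genes of any of these 3 lists were called higher.

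Meg3, Rian and Mirg are strung along the same strand of the Dlk1-Dio3 domain, Meg3 at chr12:109541001-109571726, Rian at chr12:109603940-109661716 and Mirg at chr12:109729764-109749460. The promoter of Meg3 is shown because it is the first of the 3 along the strand and Meg3 the most abundant per kilobase: chr12:109540746-109541045, plus strand, 250 bases before to 50 after its first start (RefSeq, GRCm38.p6).
Meg3 promoter: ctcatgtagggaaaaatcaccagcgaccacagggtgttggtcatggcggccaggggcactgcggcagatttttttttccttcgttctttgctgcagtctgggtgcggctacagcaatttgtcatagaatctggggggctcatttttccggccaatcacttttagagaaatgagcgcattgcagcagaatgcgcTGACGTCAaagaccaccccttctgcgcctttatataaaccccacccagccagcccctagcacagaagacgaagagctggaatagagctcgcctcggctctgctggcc
The capitals mark TGACGTCA, the palindromic cAMP response element, which reads the same on both strands. It begins 57 bases before the start, and 1.79% of 32851 mouse promoters of this length hold it. Of the members with a listed promoter, Meg3 and Gas5 each have the element in 1 of 2 promoters, and Malat1, Miat, Snhg11, Rian and Mirg lack these letters in this window. Mirg spans 14 microRNA entries with 26 mature microRNAs, of which miR-453 and miR-496a-5p are printed as the only pair with a common seed (bases 2 to 8, in capitals; RefSeq, GRCm38.p6).
miR-453: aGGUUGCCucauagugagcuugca
miR-496a-5p: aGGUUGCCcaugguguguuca
The deposited table counts the host transcripts, and mature microRNAs were not measured.

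Meg3 had normalized counts of 2089, 3784 and 4159 at P1 and 1635, 2534 and 1802 at P7. It had 4363, 2902 and 5194 at P14 and 1150, 951 and 515 at P28. The P28 libraries were the lowest and did not overlap with any other time point, and P14 lay above P7. Meg3 rose by 1.05 ± 0.323 from P7 to P14 (limma, adjusted p = 0.0321) and fell by 2.29 from P14 to P28 (adjusted p = 0.000733), a 4.88-fold decrease. The rise was 0.79 with library totals, outside the threshold, and was also lost without P7 replicate 1 (0.92), P7 replicate 3 (0.99), P14 replicate 1 (0.99) or P14 replicate 3 (0.86). The fall stood under all alternatives, as did the difference of -1.95 between P1 and P28 (adjusted p = 0.000357).

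Rian, a host of small nucleolar RNAs, was at 495, 1117 and 957 at P1 and at 561, 653 and 728 at P7. It was at 913, 1061 and 1997 at P14 and at 260, 308 and 627 at P28. All P14 libraries lay above those of P7 and of P28. The step from P7 to P14 missed the threshold (log2 fold change 0.95 ± 0.376; limma, adjusted p = 0.0902, 0.0223 to 0.339 over the alternatives). Rian fell by 1.75 in the step to P28 (adjusted p = 0.00793). Over the whole course it fell by 1.13 (limma, adjusted p = 0.0311), a call lost with only P1 and P28 in the fit. The call was also lost without P1 replicate 2, P1 replicate 3, P28 replicate 1 or P28 replicate 2, with changes of -0.88 to -1.01.

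Per kilobase of exon Mirg was the least abundant of the 3, and it had normalized counts of 16.0, 59.3 and 18.9 at P1, and 27.1, 28.8 and 27.9 at P7. It had 59.3, 30.7 and 96.7 at P14, and 5.85, 4.72 and 4.06 at P28, which are 4, 4 and 3 reads. The P28 libraries lay below all others. Mirg fell from P14 to P28 (limma, log2 fold change -3.29 ± 0.716, adjusted p = 0.00862); from summed reads, 174 against 11, P14 was 12.8 times P28, with an exact 95% interval of 6.97 to 26.1 that covers counting error only. From P1 to P28 it fell by 2.23 (limma, adjusted p = 0.0264), a call lost without P1 replicate 2 (-1.66) and with only P1 and P28 in the fit. From P7 to P14 the change was 0.98 (adjusted p = 0.388).

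**Figure D3:**
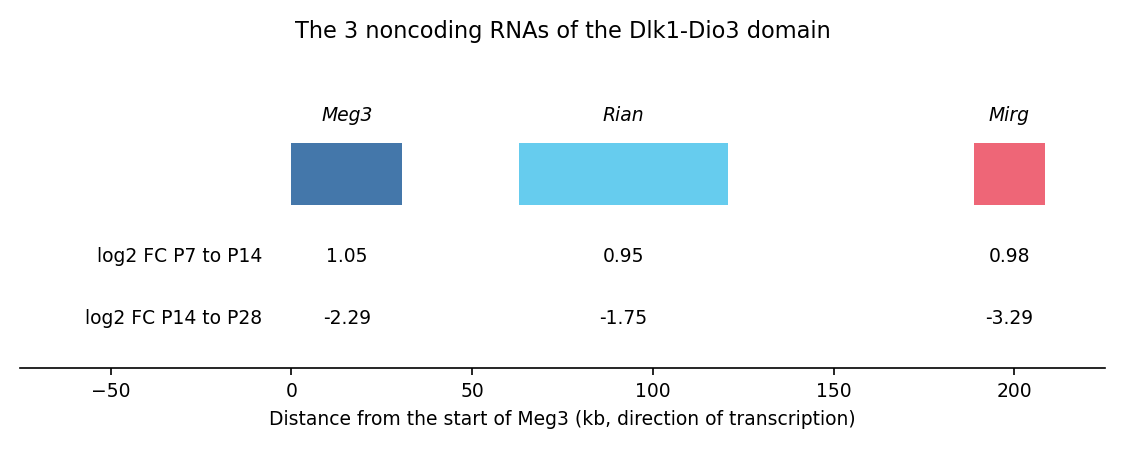
Map of Meg3, Rian and Mirg on the plus strand, drawn to scale as distance from the start of Meg3 in kilobases, with the log2 fold change of each below it. All 3 values from P7 to P14 are positive (0.95 to 1.05, of which Meg3 alone passed the threshold), and all 3 from P14 to P28 are negative (-1.75 to -3.29).

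As a description over the 12 libraries, Pearson's r between log2 values was 0.89 for Meg3 and Mirg, 0.82 for Rian and Mirg and 0.74 for Meg3 and Rian, and 0.59, 0.46 and 0.08 between deviations from the time point means. The 3 genes most like Meg3 were Csmd3 (0.97), Cadm1 (0.93), an adhesion molecule of synapses, and Gm10033 (0.91). Markers of oligodendrocyte precursors took 0.0530% to 0.0801% of the reads in the P1 libraries, 0.0349% to 0.0433% in those of P7, 0.0509% to 0.0556% in those of P14 and 0.0151% to 0.0194% in those of P28. From P7 to P14, 2 of the 5 rose, Sox10 (1.99) and Gpr17 (1.02), and 1 fell, Pdgfra (-0.84). Their r with Meg3 was 0.87 over all libraries and 0.19 between deviations. Their part in the level of Meg3 was not tested. Dlk1, the paternally expressed Notch-related protein 77665 bases before Meg3, fell from 267 ± 167 at P1 to 24.02 ± 11.2 at P7 (SD, n = 3; limma log2 fold change -3.30, adjusted p = 0.0274). It had 16.0 ± 11.8 at P14 and 0 reads in all P28 libraries, at least 4.02-fold lower than at P14 against a floor of 3 reads per library. Of the 7 other genes of the domain that were tested, 1 was called higher from P7 to P14, Dio3os, from a mean of 0.436 to 17.03 (limma, adjusted p = 0.0264), beside 10.8% of all genes. Dlk1 alone was called lower from P14 to P28, beside 8.76% of all genes. The median log2 fold change of the 7 was 0.30 and then -1.49, beside -0.09 and -0.12 for all genes tested. In the second step 1 of the 7 had a positive change.

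Entries inside the span of a host can share its exon sequence. Of the 14 microRNA entries inside Mirg, 10 had a read. How the counting treated reads that fall on both a host and an entry inside it is not stated, so the counts of Meg3, Rian and Mirg are uncertain to that degree.

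Miat (chr5:112213228-112229395, minus strand), also called Gomafu, keeps to its own places in the nucleus and carries repeats that bind the splicing factor SF1. The exonic stretch with the most repeats is shown because the repeat marks Miat among the members: chr5:112217220-112217459, minus strand (GENCODE M21, GRCm38), with each ACTAAC in capitals.
Miat: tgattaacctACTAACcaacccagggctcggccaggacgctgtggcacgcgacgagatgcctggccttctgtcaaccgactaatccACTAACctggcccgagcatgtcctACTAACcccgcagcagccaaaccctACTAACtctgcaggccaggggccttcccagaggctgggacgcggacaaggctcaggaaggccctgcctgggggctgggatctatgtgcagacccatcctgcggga
This window of 240 bases holds 4 of the 11 copies in the longest Miat transcript, on the transcribed strand alone. That is 1.20 copies per kilobase, beside 0 to 0.391 in the longest transcripts of the other members. Of 19565 genes with a longest transcript of at least 2000 bases, 0.123% were at least as dense.

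From P7 to P14 and from P1 to P28, Miat had the largest log2 fold changes of the 10 RNAs. Its normalized counts were 2019, 950 and 1970 at P1 and 2952, 2398 and 2842 at P7. They were 313, 165 and 248 at P14, and 20.5, 110 and 6.76 at P28. Each time point lay apart from the others, with P7 above P1, P1 above P14 and P14 above P28, and P28 replicate 2 stood above the other P28 libraries. From P1 to P7 the log2 fold change was 0.80 ± 0.667 (limma, adjusted p = 0.621). Miat fell by 3.53 from P7 to P14 (adjusted p = 0.00165), an 11.6-fold decrease, which 2.28% of the genes tested matched or exceeded in size. It fell again by 3.15 from P14 to P28 (adjusted p = 0.00756); the change was -4.19 without P28 replicate 2 and -2.27 without P28 replicate 3. Summed reads gave a smaller ratio for this step, 680 against 112 or 4.91 times (exact 95% interval 4.01 to 6.05, counting error only), and P28 replicate 2 holds 93 of the 112 reads. From P1 to P28 the change was -5.88 (adjusted p = 1.35e-05), or -6.92 without P28 replicate 2 and -5.00 without P28 replicate 3.

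Markers of dividing cells moved with Miat. The 10 listed, such as Mki67 and Top2a, all fell from P7 to P14 (median log2 fold change -4.56) and 6 of the 10 fell from P14 to P28. Their sum was 0.105% to 0.188% of the reads in the P1 libraries and 0.245% to 0.321% in those of P7. It was 0.0136% to 0.0199% in the P14 libraries and 0.00487% to 0.00824% in those of P28. Pearson's r with Miat was 0.94 over the 12 libraries and 0.59 between deviations from the time point means, as a description. Their part in the level of Miat was not tested.

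Sox2ot (chr3:34104270-34682619, plus strand) is a long transcript whose intron holds the gene of Sox2, a transcription factor of neural stem cells and glia. Its normalized counts were 794, 769 and 838 at P1 and 670, 448 and 951 at P7. They were 2369, 2487 and 2572 at P14 and 830, 643 and 350 at P28. The P14 libraries stood far above the other 9, which overlapped. Sox2ot rose by 1.91 ± 0.297 from P7 to P14 (limma, adjusted p = 0.000368), 3.75-fold, and fell by 2.11 from P14 to P28 (adjusted p = 0.000733), 4.32-fold. Both calls stood under all alternatives, and the net change from P1 to P28 was -0.48 (adjusted p = 0.225). Like that of Malat1, its mean was highest at P14 and its P1 and P7 libraries overlapped, which also held for Meg3, Snhg11, Rian and Mirg. For Sox2, the means at the 4 ages, from the youngest, were 1069, 357, 395 and 950. Between P1 and P7 it fell by 1.70 (adjusted p = 0.00709), had a log2 fold change of 0.21 from P7 to P14 (adjusted p = 0.734), and then rose by 1.27 (adjusted p = 0.0253) up to P28, the step in which Sox2ot fell. No exon of the one overlaps an exon of the other. The oligodendrocyte markers given above peaked at P14 as Sox2ot did (r = 0.49 over the 12 libraries, 0.60 between deviations). The marker lists of microglia, general neurons, granule neurons and endothelial cells also had their highest mean at P14. Their r with Sox2ot was 0.69, 0.54, 0.49 and 0.16 over all libraries, and 0.09, 0.10, -0.34 and -0.58 between deviations. What part any of these cells had in the level of Sox2ot was not tested.

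Rmst (chr10:92071037-92165170, minus strand), which binds SOX2 in differentiating neurons, had its lowest mean at P14. Its normalized counts were 209, 272 and 301 at P1 and 340, 208 and 288 at P7. They were 155, 94.2 and 53.2 at P14 and 314, 288 and 127 at P28. The P14 libraries lay below those of P1 and P7, and overlapped with P28 through P28 replicate 3. Rmst fell by 1.56 ± 0.443 from P7 to P14 (limma, adjusted p = 0.0214), and this call was lost without P7 replicate 1 (-1.40), P7 replicate 3 (-1.52), P14 replicate 2 (-1.58) or P14 replicate 3 (-1.17). From P14 to P28 the change of 1.29 missed the threshold (adjusted p = 0.0666, 0.0171 to 0.275 over the alternatives, 1.70 without P28 replicate 3 and 1.66 without P14 replicate 1, which both passed).

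Snhg11 (chr2:158375638-158386145, plus strand), a host of small nucleolar RNAs that is best known from neurons, is classed as protein-coding in GENCODE M21. Its normalized counts were 462, 1050 and 1736 at P1 and 191, 466 and 248 at P7. They were 1110, 1260 and 1744 at P14 and 457, 732 and 381 at P28. The P14 libraries lay above those of P7 and P28, and the P1 libraries reached from the level of P28 to that of P14. Between P1 and P7 Snhg11 fell by 1.75 ± 0.432 (limma, adjusted p = 0.0225), then it rose by 2.26 from P7 to P14 (adjusted p = 0.00180) and fell by 1.42 up to P28 (adjusted p = 0.0415). The rise stood under all alternatives. The first fall was lost without P1 replicate 2 (-1.67), P1 replicate 3 (-1.31), P7 replicate 1 (-1.47) or P7 replicate 3 (-1.66). The last was lost without any 1 of 7 libraries, P1 replicate 2, P7 replicate 3, the 3 P14 libraries, P28 replicate 1 and P28 replicate 3, with changes of -1.22 to -1.69 as each of the 12 was left out. General neuron markers took 0.0320% to 0.0844% of the reads in the P1 libraries, their lowest level, and 0.120% to 0.147% in those of P7. They took 0.240% to 0.423% in the P14 libraries and 0.124% to 0.162% in those of P28. Much of the P14 sum was Snap25, a protein of synaptic vesicle release, with a mean of 2303 at P7 and 21594 at P14, while the list had 3 higher and 2 lower genes in that step and a median log2 fold change of 0.08. Pearson's r between Snhg11 and the sum was 0.21 over the 12 libraries and 0.66 between deviations from the time point means, and the part of these cells in its level was not tested.

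Gas5 (chr1:161034422-161038539, plus strand), whose introns carry a set of box C/D small nucleolar RNAs, declined late. Its normalized counts were 1165, 1127 and 1068 at P1 and 1753, 1599 and 1441 at P7. They were 996, 1047 and 1226 at P14 and 811, 415 and 641 at P28. The P7 libraries were the highest and the P28 libraries the lowest, without overlap with the rest. Gas5 fell by 0.85 ± 0.219 from P14 to P28 (limma, adjusted p = 0.0193; -0.77 and no longer called without P14 replicate 3) and by 0.90 from P1 to P28 (adjusted p = 0.00579), the latter under all alternatives. The earlier steps were 0.51 (adjusted p = 0.208) and -0.55 (adjusted p = 0.0910). Of 13 other host genes of small nucleolar RNAs, 1 fell in each of the 3 steps and 0 rose, Snhg18 from P1 to P7 (-2.08), Snhg5 from P7 to P14 (-2.08) and Snhg17 from P14 to P28 (-3.26). These counts are near the share of all genes called lower in the same steps (4.24%, 10.0% and 8.76%). The median log2 fold change of the 13 was 0.31, -0.50 and -0.39 in the 3 steps, beside 0.04, -0.09 and -0.12 for all genes tested. Of the 13, 12, 3 and 5 had a positive change.

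**Figure D4:**
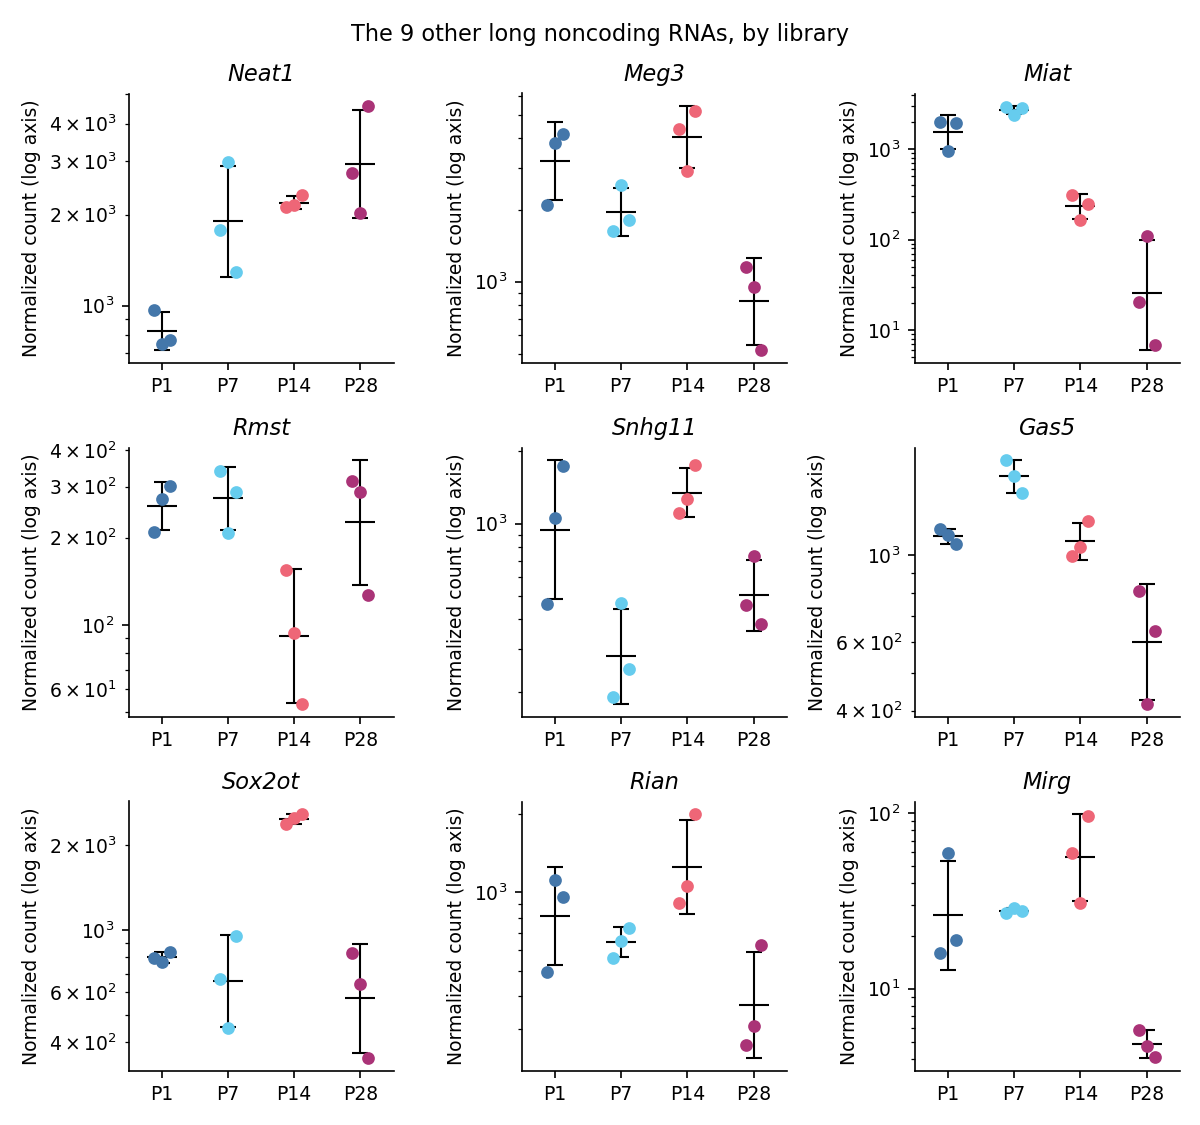
Normalized counts of the 9 RNAs other than Malat1 in each library, by time point, each on its own log axis; points are libraries and black bars are the mean ± SD of log2(normalized count + 1) over 3 libraries, drawn back on the count scale. Sox2ot, Snhg11, Meg3, Rian and Mirg have their highest means at P14. Miat falls at P14 and again at P28, Rmst is lowest at P14, and Neat1 is lowest at P1.

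Read together, 2 of the 10 RNAs were called from P1 to P7, Neat1 higher and Snhg11 lower, where 7.70% of all genes tested were called (3.47% higher and 4.24% lower). From P7 to P14, 5 of the 9 other than Malat1 were called, beside 20.9% of all genes. Of these, Meg3, Snhg11 and Sox2ot rose (10.8% of all genes did) and Miat and Rmst fell (10.0%). From P14 to P28, 7 of the 9 were called, all lower, beside 14.4% of all genes (8.76% lower and 5.68% higher): Meg3, Miat, Snhg11, Gas5, Sox2ot, Rian and Mirg. From P1 to P28, 7 of the 10 were called beside 34.6% of all genes, Malat1 and Neat1 higher (14.6%) and Meg3, Miat, Gas5, Rian and Mirg lower (20.0%). The steps share the libraries of the time point between them, so a high or low P14 moves both adjoining steps. Scaling by library totals changed the balance over all genes: 1676 of 3227 called genes were higher in the step to P14, against 1203 of 3653 with totals, and 878 of 2232 in the step to P28, against 456 of 2392. Over the whole course it was 2264 of 5350 against 1368 of 6500. The libraries of the 2 time points did not overlap for 3 of the 10 from P1 to P7 (38.3% of all genes), 8 of the 9 from P7 to P14 (46.1%), 7 of the 9 from P14 to P28 (26.1%) and 6 of the 10 from P1 to P28 (41.9%).

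**Figure D5:**
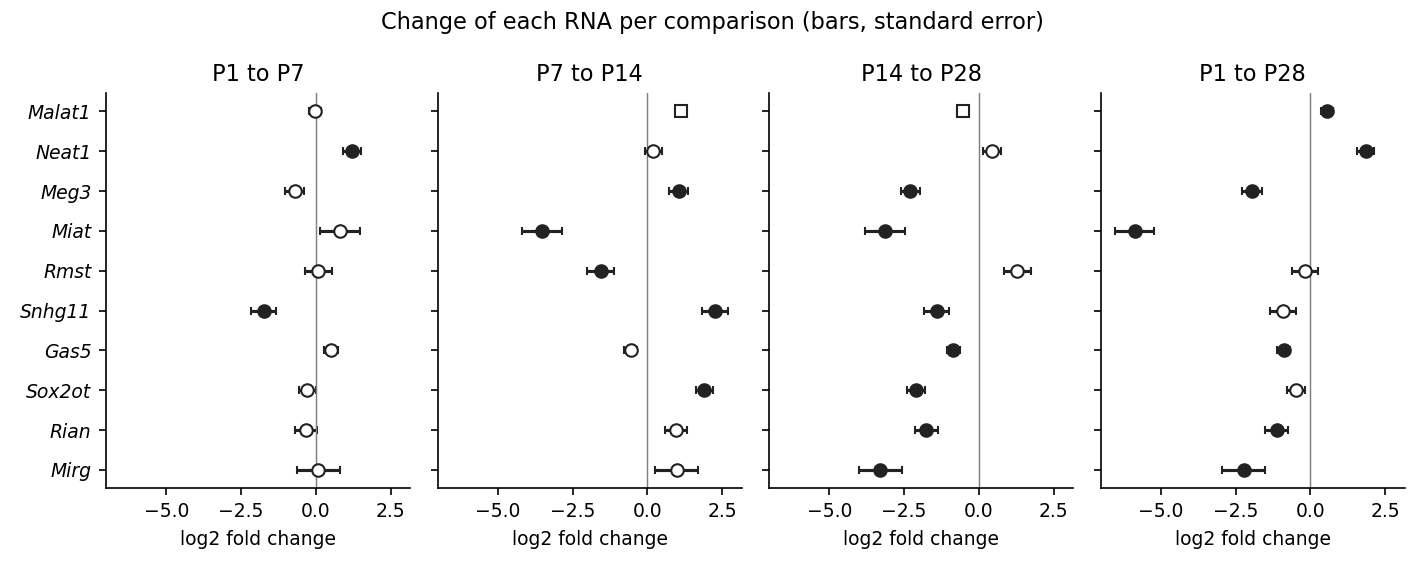
Log2 fold change of each RNA in the 4 comparisons, with bars of 1 standard error from the limma fit over 12 libraries; filled circles passed an adjusted p of 0.05, open circles did not, and squares mark Malat1 where its change is a description with no test. From P14 to P28, 7 of the 9 tested RNAs are called and all 7 lie below 0.

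Other noncoding entries also tended to lower values at P28. Of 618 other entries tested whose annotation is noncoding, 6 rose and 71 fell from P14 to P28, with a median log2 fold change of -0.74 beside -0.12 for all genes tested. From P7 to P14, 23 rose and 36 fell (median -0.27 beside -0.09), and from P1 to P7, 19 rose and 6 fell (median 0.25 beside 0.04). Of all genes tested, 5.68% rose and 8.76% fell from P14 to P28. The shares were 10.8% and 10.0% from P7 to P14, and 3.47% and 4.24% from P1 to P7. Scaling by library totals moved the median of all genes to 0.095, -0.34 and -0.35 in the 3 steps. A filter of at least 10 in every library moved that from P14 to P28 to 0.044. The noncoding entries and all genes were not matched on level. Of 27 named long noncoding RNAs tested beside the members, 2 rose and 6 fell from P7 to P14, beside 10.8% and 10.0% of all genes. From P14 to P28, 1 rose and 9 fell, beside 5.68% and 8.76%. Among them, 2810468N07Rik rose by 3.26 ± 0.509 from P7 to P14 (limma, adjusted p = 0.000372), from a mean of 68.7 to 660, a larger change than that of Malat1. Mir124a-1hg, the host of the neuronal microRNA miR-124, rose by 3.49 in the first step (adjusted p = 0.000234). H19, an imprinted RNA of growing tissue, fell by 3.21 in the first step (adjusted p = 0.00840) and by 3.16 in the last (adjusted p = 0.00777), from a mean of 2297 at P1 to 3.56 at P28. From P14 to P28, 2 of the list had larger log2 fold changes than H19. These were Lhx1os, with -4.58 (limma, adjusted p = 0.00211), and Otx2os1, with -3.45 (adjusted p = 0.0174). Lhx1os went from a mean of 41.6 ± 25.5 to 0.974, and Otx2os1 from 19.4 ± 20.2 to 0.393 (SD, n = 3). These P28 means lay below the floor of 3 reads per library at P28 (3.54 to 4.38), and that of H19 lay near it. The sizes of these changes, and their order, are therefore uncertain.

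Per kilobase of exon, Malat1 was the most abundant of the 10 at every time point, at 42820 ± 3543, 42212 ± 3741, 91130 ± 9098 and 63122 ± 9428 normalized counts per kilobase from the youngest to the oldest group (SD, n = 3). The length is that of the exons of GENCODE transcripts with a RefSeq counterpart, or of all exons where there was none, as for Rian. The authors counted reads on UCSC gene models, whose lengths may differ from these. Gas5 came second at P1 (438 ± 18.97), P7 (625 ± 61.1) and P28 (244 ± 77.7), where it overlapped with Sox2ot. Sox2ot came second at P14 (834 ± 34.2), without overlap with Gas5 (426 ± 47.3). Mirg was the lowest at P1, P7 and P28, overlapping with Neat1 at P1 and with Miat at P28, and Miat was the lowest at P14 (27.6 ± 8.49), where it overlapped with Rmst. Most neighbours in the middle of the order overlapped, such as Sox2ot, Meg3, Miat and Snhg11 at P1. Without Malat1, the 9 other RNAs together were a small part of the reads: the 10 summed to 5.59% to 7.01% of the reads at P14, where Malat1 alone had 5.48% to 6.89%.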

How the data were processed

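The 12 libraries hold RNA of GFP-sorted cerebellar cells, 3 for each of the 4 ages. Per the labels and the paper's methods, the authors aligned reads to mm10 with STAR (version 2.5.0a), assigned them to UCSC gene models and scaled the resulting counts by DESeq2, for which the sources give different versions (1.30.1 in the submitters' processing notes). Use of strand and the treatment of reads shared by entries are not given in the sources used here. The deposited values are a signal, counts that the authors divided by 1 size factor per library; dividing by the smallest value above 0 of each library gave whole reads for 100% of the values (tolerance 0.01). Columns were matched through the names in the sample labels, and 0 remained unmatched. The text P28 stands in each of the 12 column names and was not used: the ages rest on the labels. Depth was 6399499 to 14733985 reads on genes per library; intervals and floors (3 reads) cover counting error only.

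Genes were tested by limma (version 3.58.1, under R 4.3.3) after taking log2(value + 1), using a variance trend and a mean per time point in 1 fit over 12 libraries. The 15464 genes tested reached a value of 10 in 3 or more libraries, and p-values had Benjamini-Hochberg adjustment over all of them. The fit was checked on simulated data. The alternatives were pseudocounts of 0.5 and 10, no filter, at least 10 in every library, library totals with and without the members, TMM scaling, edgeR (version 4.0.16) and DESeq2 (version 1.42.0) on recovered reads, a fit of the compared ages alone, a block for the replicate number, and each library left out. Annotation was GENCODE M21 on GRCm38 (the mm10 build), matched by symbol; promoters and microRNAs came from RefSeq on GRCm38.p6, with promoters for 7 of the 10 RNAs.

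The members, the gene lists and the tests were chosen with earlier results of these data known. The genes named are the 10 RNAs; from each list about them, per step, the 3 called genes, or fewer, that changed most; the 5 genes most like Malat1 and the 3 most like Meg3 by Pearson's r; the nearest tested protein-coding genes; and at most 3 markers per list. Sox2, which lies inside Sox2ot, and Rn45s fall outside this rule and were named after their values were seen. A neighbouring gene that the rule names is not reported here.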

Additional observations from a re-analysis of the deposited data

How the results depend on the processing

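The count of RNAs called was recomputed under each alternative. With only the time points compared in the fit, it was 3 instead of 2 from P1 to P7 and 7 instead of 5 in the step to P14, but 3 instead of 7 from P14 to P28 and 4 instead of 7 from P1 to P28, and the latter was also 4 with a filter of at least 10 in every library, which leaves out Miat and Mirg. As each library was left out, the count ran from 0 to 2 from P1 to P7 (0 without P1 replicate 2, P1 replicate 3 or P7 replicate 1), from 3 to 6 from P7 to P14 (3 without P7 replicate 1, P7 replicate 3 or P14 replicate 3), from 5 to 7 from P14 to P28 and from 5 to 7 from P1 to P28. The calls lost in the step to P28 with only those ages in the fit were those of Miat, Gas5, Rian and Mirg, whose values do not change there. The share of reads of Malat1 at P14 ran from 5.85% to 6.55%. Every alternative that gave a value kept the calls of Neat1, Meg3, Miat and Gas5 over the whole course, of Miat, Snhg11 and Sox2ot in the step to P14, and of Meg3 and Sox2ot in the step to P28.

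Values close to 0 changed sign. Malat1 from P1 to P7 was 0.037 with library totals and 0.039 with totals without the 10 RNAs, and ran from -0.075 to 0.051 as each library was left out. Neat1 from P7 to P14 was -0.052 and -0.010 with these totals and ran from -0.076 to 0.53. Rmst from P1 to P7 ran from -0.072 to 0.28, and from P1 to P28 from -0.43 to 0.22. Mirg from P1 to P7 was -0.15 with edgeR and -0.17 with DESeq2, and ran from -0.26 to 0.65. Against library totals without the 10 RNAs, Malat1 was 0.89 in the step to P14 and -0.81 in the step to P28. The causes were not tested.

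With the replicate number as a block, 2, 6, 7 and 6 of the RNAs were called in the 4 comparisons, with Rian from P7 to P14 gained and Malat1 from P1 to P28 lost. The replicate numbers name samples only: of 18 pairs with the same number, 1 had a correlation of deviations over 0.1 (median 0.031), so no pairing was used. With 3 libraries a time point, an exact permutation test cannot go below 0.1. Depth limits Mirg and Miat at P28 most.

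Over all genes, 1191 were called from P1 to P7, but 1808 with DESeq2, 2820 with only those ages in the fit and 651 to 1536 as each library was left out. In the step to P28, 2232 were called, but 1524 with at least 10 in every library (862 of them higher), 766 with only those ages, 1421 without P14 replicate 1 and 1242 without P14 replicate 3. Over the whole course, 5350 were called, and 3637 with at least 10 in every library (2061 of them higher).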
